A study of Mus musculus with 192 samples.

Results

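The subject is a set of 10 genes that encode enzymes and subunits of DNA methylation and of the Polycomb system, read in 192 single mouse bone marrow cells. The genes were chosen by name: the DNA methyltransferases Dnmt1, Dnmt3a and Dnmt3b, the methylcytosine dioxygenases Tet1, Tet2 and Tet3, and the Polycomb-related genes Asxl1, Ezh1, Ezh2 and Bmi1. All 10 were found by identifier among the 20764 genes counted. The cells were labelled LSK, that is lineage-negative, Sca-1-positive and cKit-positive progenitors, from C57BL/6 mice aged 8 to 16 weeks. Cells positive for cKit were enriched with magnetic beads and sorted singly, with the antibody signals of each cell recorded. They formed 2 library pools of 96 cells, and the same 96 cell indexes served both pools. No animal was named, no genotype or treatment was varied, and the cells were therefore read as 1 sample without a test between conditions.

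Maintenance methyltransferase copies methyl marks onto the new strand during DNA replication, whereas de novo methyltransferases set marks on unmethylated sites, and Tet enzymes oxidise methylcytosine towards its removal. Polycomb repressive complex 2 methylates histone H3 at lysine 27 through a catalytic subunit that is either Ezh2 or Ezh1, and Polycomb repressive complex 1 ubiquitylates histone H2A. In blood, mutations of DNMT3A, TET2 and ASXL1 are known in human clonal haematopoiesis, and Bmi1 is known in the mouse for its need in stem cell self-renewal.

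After 1 cell with 708 gene UMIs (unique molecular identifiers, each standing for 1 captured transcript) was left out, 191 cells held 3704842 gene UMIs, between 3927 and 49372 per cell with a median of 17715. The labelled type was met at the RNA level by Kit in 98.4% of cells, Ptprc in 96.3% and Cd34 in 95.3%, while Ly6a, the gene of Sca-1, had a UMI in 37.7%. Of 11 genes of lineage-positive cells, 8 were in the counts: Itgam had a UMI in 31.4% of cells, Klrb1c in 10.5%, 5 others in 3.14% to 5.24%, and S100a8 was at 0. A level is given here as the UMIs of a gene summed over the cells of a class per 1000000 gene UMIs of that class (CPM). Intervals are exact 95% intervals that cover counting error only, not the spread between cells or between animals.

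The 10 genes were captured at a few UMIs per cell. Dnmt1 had 557 UMIs in all, Dnmt3a 544, Ezh2 497, Tet1 and Tet3 349 each, Dnmt3b 334, Asxl1 229, Bmi1 223, Tet2 163, and Ezh1 73 in pool 1 and 53 in pool 2. Dnmt3a was seen in the largest share of cells, 86.9%, followed by Dnmt1 in 77.0%, and the lowest shares were 48.2% for Tet2 and 43.98% for Ezh1. The genes differed in how unevenly their UMIs fell over the cells. The variance of UMIs per cell was 4.18 times the mean for Dnmt1 and 3.65 times the mean for Ezh2, against 1.24 to 1.87 times for the other 8 genes. The cell with the most UMIs of Dnmt1, 19, held 15 of Ezh2 and 92 UMIs of the cycle markers described next. One other cell also held 15 UMIs of Ezh2, the highest count of that gene, with 8 of Dnmt1.

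A pair of transcripts outside the set, Mki67 and Top2a, marked cells in cycle; Mki67 encodes the proliferation antigen Ki-67 and Top2a a topoisomerase of dividing cells. With 5 or more UMIs of the pair a cell was called cycling (42 cells), with 0 non-cycling (62 cells), and 87 cells lay between. For each signal the cells of a pool were ranked into 3 classes of 32, the lower, middle and upper class. A ratio met the rule for a difference when it was at least 1.5-fold, its interval excluded 1 and it had the same sign in both pools. A gene is called cycle-linked where cycling over non-cycling cells met the rule, and surface-linked where upper over lower class of CD135, CD150, Sca-1 or cKit met it among cells under 5 cycle UMIs. Forward scatter, a measure of cell size, was classed in the same way and is given apart from the surface signals.

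Dnmt1, the maintenance methyltransferase, and Ezh2, the Polycomb methyltransferase of dividing cells, were higher in cycling cells, and the 3 Tet genes and Ezh1 were lower. Between cycling and non-cycling cells 2 of the 10 genes met the rule upwards and 4 downwards, against 12.3% of the 6719 genes with at least 50 UMIs upwards and 11.4% downwards. Dnmt3a, Dnmt3b, Asxl1 and Bmi1 did not meet it. The median log2 ratio over the 10 genes was −0.25, and over all genes tested it was −0.03.

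Dnmt1 lay on chromosome 9, at chr9:20907209-20959888 on the minus strand of GRCm38. It had 269 UMIs in cycling cells, against 79 UMIs in non-cycling cells. In single cells its level ran between 0 and 473 CPM with a median of 204 CPM in cycling cells, and between 0 and 444 CPM with a median of 63.9 CPM in non-cycling cells. The ranges of the classes overlapped while their medians lay apart. The summed level was 232.8 CPM in cycling and 76.4 CPM in non-cycling cells, a log2 ratio of 1.61 (1.24 to 1.99), with 1.62 in pool 1 and 1.53 in pool 2. A UMI of Dnmt1 was found in 90.5% of cycling cells and in 66.1% of non-cycling cells. Cells were also thinned to 12147 UMIs, which left out 19 cells with fewer. In the 40 cycling and 53 non-cycling cells that remained these shares were 85% and 60.4%.

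Ezh2 lay on chromosome 6, at chr6:47530139-47595341 on the minus strand. It had 241 UMIs in cycling cells, against 92 UMIs in non-cycling cells. Its level in single cells had a median of 163 CPM and a highest value of 481 CPM in cycling cells, against a median of 70.1 CPM and a highest value of 448 CPM in non-cycling cells. The summed level was 208.6 CPM in cycling and 89.0 CPM in non-cycling cells, a log2 ratio of 1.23 (0.88 to 1.59), with 1.02 in pool 1 and 1.38 in pool 2. Like Dnmt1 it had cells at 0 in both classes. In each of the 11 cells with 30 or more cycle UMIs, both genes were present, Dnmt1 with 7 to 19 UMIs and Ezh2 with 6 to 15.

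Ezh1, the alternative catalytic subunit, lay on chromosome 11, at chr11:101191115-101226463 on the minus strand, and went the other way. It had 20 UMIs in cycling cells, against 51 UMIs in non-cycling cells. No cycling cell held more than 2 UMIs of it, and the highest count in a non-cycling cell was 5. The summed level was 17.3 CPM in cycling and 49.3 CPM in non-cycling cells, a log2 ratio of −1.51 (−2.34 to −0.74), with −1.78 in pool 1 and −1.26 in pool 2. The share of cells with a UMI was 40.5% in cycling and 50% in non-cycling cells, and at 12147 UMIs per cell 25% and 35.8%.

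The promoters of these 3 genes are shown because Dnmt1 and Ezh2 moved together with the cycle and Ezh1 moved against them. E2F factors drive many genes at entry into S phase, and 4 words of E2F type were searched on both strands from 250 bases before to 50 bases after each start. The words were TTCCCGC, then TTCGCGC, then TTGCCGC and then TTGGCGC, and they were chosen after the values were seen. They are in capitals, in the orientation of the gene. The windows are from RefSeq on GRCm38.p6, at chr9:20952574-20952873 for Dnmt1, chr6:47594981-47595280 for Ezh2 and chr11:101226414-101226713 for Ezh1, all on the minus strand. Dnmt1 had 3 windows, and only the one that held words is shown. The others, at chr9:20952930-20953229 and chr9:20959839-20960138, held none and lie upstream of it on the gene's strand. Which start of Dnmt1 was used in these cells was not tested.
Dnmt1: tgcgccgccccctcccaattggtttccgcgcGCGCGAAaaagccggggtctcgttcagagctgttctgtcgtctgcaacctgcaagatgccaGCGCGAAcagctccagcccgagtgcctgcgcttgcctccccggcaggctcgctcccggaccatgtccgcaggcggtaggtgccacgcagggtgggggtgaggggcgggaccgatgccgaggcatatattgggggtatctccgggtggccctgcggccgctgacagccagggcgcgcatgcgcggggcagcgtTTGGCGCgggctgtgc
Ezh2: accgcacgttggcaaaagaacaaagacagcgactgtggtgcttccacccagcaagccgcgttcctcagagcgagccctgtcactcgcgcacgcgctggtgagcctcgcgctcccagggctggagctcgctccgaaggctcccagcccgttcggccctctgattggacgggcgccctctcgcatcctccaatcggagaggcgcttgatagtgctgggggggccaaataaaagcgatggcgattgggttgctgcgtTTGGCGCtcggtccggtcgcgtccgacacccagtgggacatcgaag
Ezh1: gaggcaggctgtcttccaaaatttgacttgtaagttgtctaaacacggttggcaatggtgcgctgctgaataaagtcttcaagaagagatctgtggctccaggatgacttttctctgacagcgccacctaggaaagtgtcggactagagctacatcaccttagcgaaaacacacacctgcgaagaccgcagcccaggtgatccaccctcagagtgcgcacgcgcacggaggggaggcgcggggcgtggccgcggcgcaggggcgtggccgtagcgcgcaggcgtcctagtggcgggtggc

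The Dnmt1 window shown held 3 words, starting at bases 32, 93 and 285, and the Ezh2 window 1, at base 255, and no word overlapped another. The Ezh1 window held none of them. Of 14 windows of the 10 genes 3 held a word, 1 of the 3 windows of Dnmt1 and those of Ezh2 and Asxl1, against 9.57% of the 32851 windows of all genes. Counted by gene, with a word in any window, 3 of the 10 genes held one, against 10.9% of all genes with a window. For comparison, 10 of 15 matched genes of a list of S-phase genes and 2 of 14 matched genes of a list of G2 and M genes held one by that count. A match describes letters and is not a bound site, and no match says only that these letters are not in the window. Asxl1 had a word and did not meet the rule between cycling and non-cycling cells.

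The 3 Tet genes were lower in cycling cells. Tet1, on chromosome 10 at chr10:62804570-62908996 on the minus strand, had 61 UMIs in cycling cells, against 119 UMIs in non-cycling cells. Its summed level was 52.8 CPM in cycling and 115.1 CPM in non-cycling cells, a log2 ratio of −1.12 (−1.59 to −0.67), with −1.24 in pool 1 and −1.17 in pool 2. In single cells its median was 37.3 CPM in cycling and 78.7 CPM in non-cycling cells, within ranges of 0 to 254 CPM and 0 to 690 CPM. The classes overlapped, and the highest values were among non-cycling cells.

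Tet2, on chromosome 3 at chr3:133463679-133545139 on the minus strand, had 28 UMIs in cycling cells, against 65 UMIs in non-cycling cells. Its summed level was 24.2 CPM in cycling and 62.9 CPM in non-cycling cells, a log2 ratio of −1.38 (−2.07 to −0.72), with −1.92 in pool 1 and −0.83 in pool 2. The median cycling cell had none of its UMIs, and the median non-cycling cell 1. Tet3, on chromosome 6 at chr6:83362373-83459084 on the minus strand, had 86 UMIs in cycling cells, against 121 UMIs in non-cycling cells. Its summed level was 74.4 CPM in cycling and 117.1 CPM in non-cycling cells, a log2 ratio of −0.65 (−1.07 to −0.24), with −0.59 in each pool. Tet3 alone among the 10 genes had an interval between the pools that excluded 1, at 76.5 CPM in pool 1 and 113.6 CPM in pool 2. Pool 1 held 23 of the 42 cycling cells and 25 of the 62 non-cycling cells. The summed ratio of Tet3 lay beyond those of both pools, each of which was just past the 1.5-fold limit. The part of the pools in that ratio was not tested.

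The de novo methyltransferases did not meet the rule between cycling and non-cycling cells. Dnmt3a, on chromosome 12 at chr12:3806007-3914443 on the plus strand, had 137.6 CPM in cycling cells, against 144.2 CPM in non-cycling cells, a log2 ratio of −0.07 (−0.40 to 0.27). Dnmt3b, on chromosome 2 at chr2:153649450-153687730 on the plus strand, had 90 UMIs or 77.9 CPM in cycling cells, against 97 UMIs or 93.9 CPM in non-cycling cells. Its log2 ratio was −0.27 (−0.70 to 0.16), and the pools differed in sign, with −0.98 in pool 1 and 0.38 in pool 2. The chromatin genes Asxl1, which partners the H2A deubiquitinase Bap1, and Bmi1, a core subunit of Polycomb repressive complex 1, also had intervals that spanned 0. Asxl1, on chromosome 2 at chr2:153345829-153404007 on the plus strand, had a log2 ratio of −0.23 (−0.78 to 0.31). Bmi1, on chromosome 2 at chr2:18677018-18686629 on the plus strand, had a log2 ratio of −0.14 (−0.67 to 0.40). The intervals of Dnmt3b, Asxl1 and Bmi1 reached the value of Tet3, and that of Dnmt3a did not.

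**Figure D1:**
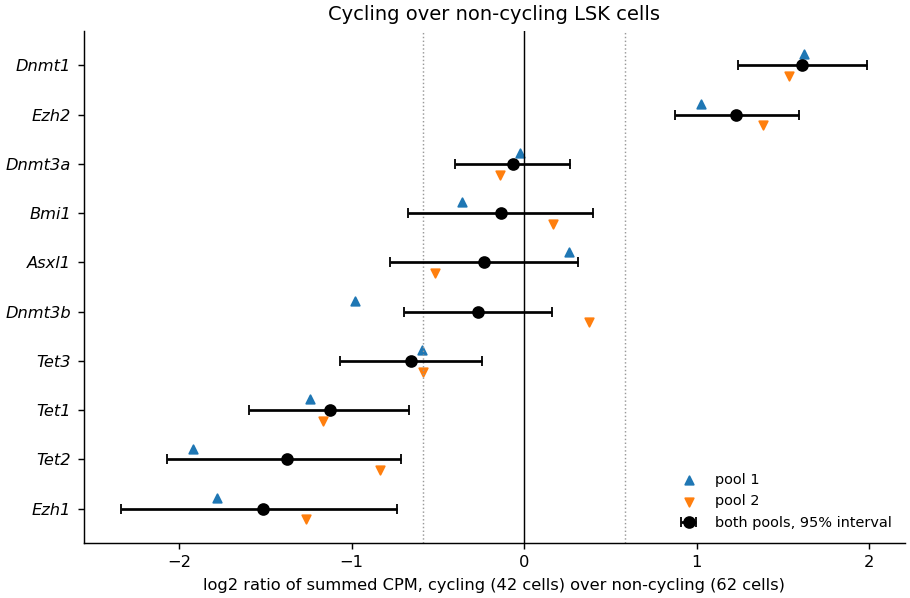
Log2 ratio of the summed level in cycling over non-cycling cells for each of the 10 genes, with the exact 95% interval of both pools together and each pool as a separate mark. Dnmt1 (1.61) and Ezh2 (1.23) lay to the right of 0, and Tet1 (−1.12), Tet2 (−1.38), Tet3 (−0.65) and Ezh1 (−1.51) to the left in both pools.

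Over rising counts of the cycle pair, from 0 through 1 to 4 and 5 to 29 to 30 or more UMIs (62, 87, 31 and 11 cells), Dnmt1 stood at 76.4, 138, 192 and 307 CPM. Ezh2 stood at 89.0, 108, 167 and 285 CPM over the same classes. Both were higher in every next class. The intervals at 0 and at 1 to 4 UMIs did not overlap for Dnmt1, at 60.5 to 95.3 CPM and 120 to 158 CPM, while those of Ezh2 did. Ezh1 stood at 49.3, 36.3, 20.05 and 12.3 CPM, and Tet2 at 62.9, 46.2, 29.4 and 14.7 CPM, lower in every next class. Tet1 differed in shape. It stood at 115 and 111 CPM with 0 and 1 to 4 UMIs, and then at 65.5 and 29.5 CPM.

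Tet3 stood at 117, 93.7, 72.2 and 78.6 CPM, so that no further step was seen past 5 UMIs. Dnmt3a, which did not meet the rule, stood at 144, 156, 171 and 76.2 CPM. Its interval in the 11 cells with 30 or more UMIs, 51.8 to 108 CPM, lay below that with 5 to 29 UMIs, 143 to 203 CPM. Dnmt3b stood at 93.9, 96.96, 82.9 and 68.8 CPM, Asxl1 at 59.02, 72.6, 40.1 and 68.8 CPM, and Bmi1 at 59.02, 65.96, 53.5 and 54.1 CPM. None of these 3 kept 1 direction over the 4 classes.

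**Figure D2:**
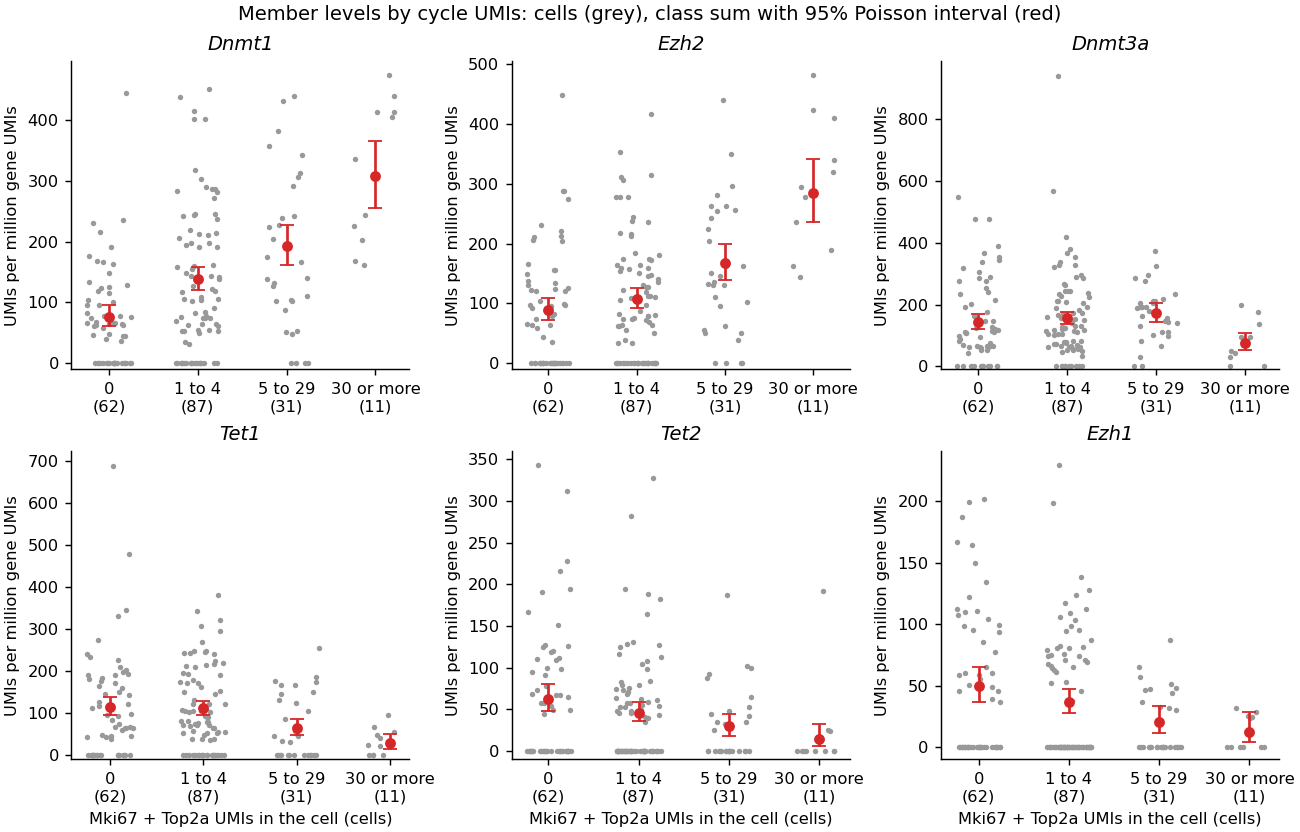
Level in CPM of Dnmt1, Ezh2, Dnmt3a, Tet1, Tet2 and Ezh1 by the number of Mki67 and Top2a UMIs in a cell (0, 1 to 4, 5 to 29, 30 or more), with each cell in grey and the summed level of the class with its exact Poisson interval in red. Dnmt1 ran up to 307 CPM and Ezh2 up to 285 CPM in the last class, where Ezh1 was at 12.3 CPM and Tet2 at 14.7 CPM.

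The make-up of each family by UMIs differed accordingly. Ezh2 gave 92.3% (88.4 to 95.3%) of the UMIs of Ezh1 and Ezh2 in cycling cells, against 64.3% (55.9 to 72.2%) in non-cycling cells. Over the 4 classes of rising cycle counts its share was 64.3%, 74.9%, 89.3% and 95.9%. Dnmt1 gave 51.9% of the UMIs of the 3 methyltransferases in cycling cells, against 24.3% in non-cycling cells, and 67.9% with 30 or more cycle UMIs. Dnmt3a gave 63.9% of the UMIs of Dnmt3a and Dnmt3b in cycling cells, against 60.6% in non-cycling cells, with overlapping intervals. Tet3 gave 49.1% of the Tet UMIs in cycling cells, against 39.7% in non-cycling cells, intervals that also overlapped. These shares count UMIs, and capture may differ between genes.

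**Figure D3:**
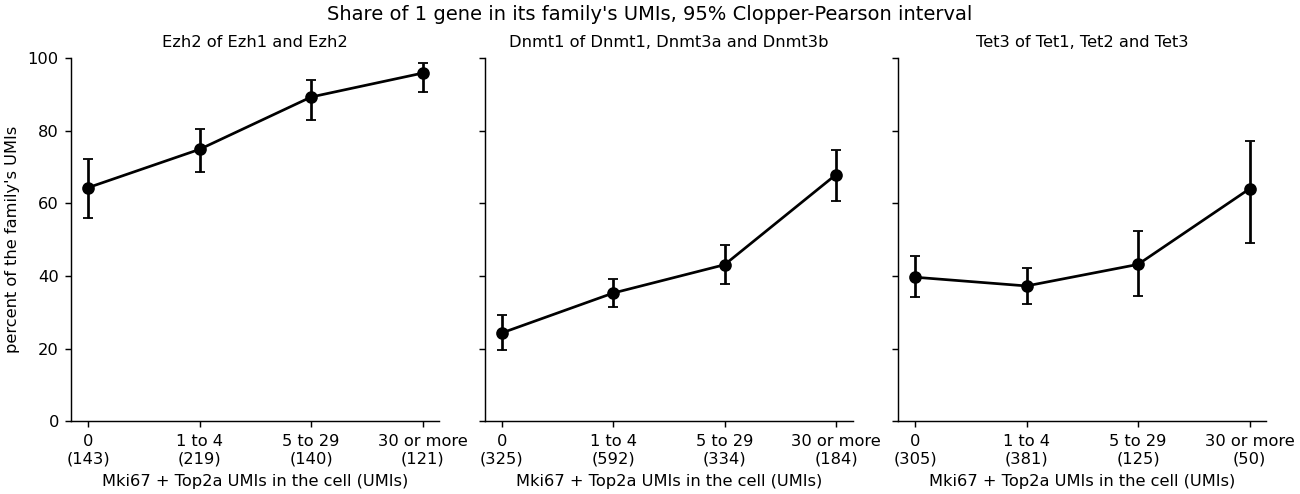
Share in percent of a family's UMIs that came from Ezh2 (of Ezh1 and Ezh2), Dnmt1 (of the 3 Dnmt genes) and Tet3 (of the 3 Tet genes) by the number of Mki67 and Top2a UMIs in a cell, with exact 95% intervals. The share of Ezh2 was 64.3% at 0 and 95.9% at 30 or more, and that of Dnmt1 24.3% and 67.9%.

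Depth and size moved with the cycle classes. Cycling cells had a median of 28083.5 gene UMIs and a median forward scatter of 150000 units, against 16423.5 gene UMIs and 132500 units in non-cycling cells. They had 42.1 gene UMIs per UMI of spike-in RNA, against 26.02 in non-cycling cells. A level in CPM is therefore a share of a larger total in cycling cells. Counted per spike-in UMI, every log2 ratio moved by the same 0.69, the median of all genes to 0.67. The ratios were then 2.30 for Dnmt1, 1.92 for Ezh2, 0.04 for Tet3, −0.43 for Tet1, −0.68 for Tet2 and −0.82 for Ezh1. The sign of Tet3 turned under that scaling, and those of Ezh1, Tet1 and Tet2 did not.

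Cell type markers moved with the cycle classes as well. All 6 measured genes of a stem list were lower in cycling cells, 5 of them by the rule, with a summed 1060 CPM in cycling cells, against 1974 CPM in non-cycling cells. The 4 genes Kit, Ly6a, Cd34 and Ptprc summed to 1017 CPM in cycling cells, against 1494 CPM in non-cycling cells, with 2 of 4 lower by the rule. Lymphoid priming genes summed to 1344 CPM in cycling cells, against 1530 CPM in non-cycling cells, with 2 of 6 measured lower by the rule. Erythroid and megakaryocytic genes summed to 1517 CPM in cycling cells, against 1090 CPM in non-cycling cells, with 1 of 5 measured higher by the rule. Granulocyte and monocyte genes summed to 588 CPM in cycling cells, against 503 CPM in non-cycling cells, with 1 of 6 measured lower by the rule. The part of these markers in the ratios of the 10 genes was not tested.

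Depth was brought closer in 2 further comparisons. Among cells with 20000 to 40000 gene UMIs, 28 cycling and 16 non-cycling, the log2 ratio was 1.65 for Dnmt1, 0.98 for Ezh2, −1.06 for Tet1, −1.61 for Tet2, −1.11 for Tet3 and −1.08 for Ezh1. In the other, cells with at least 12147 UMIs were thinned to that number before the classes were made, which gave 26 cycling and 60 non-cycling cells. The log2 ratio was then 1.67 for Dnmt1, 0.68 for Ezh2, −0.46 for Tet1, −0.88 for Tet2, −0.89 for Tet3 and −1.25 for Ezh1. The direction was the same for all 6 genes in both, but the size was not. In the thinned cells Tet1 fell short of 1.5-fold and lay outside its reported interval of −1.59 to −0.67. Ezh2 in the thinned cells lay below its reported interval of 0.88 to 1.59. Tet3 among cells with 20000 to 40000 gene UMIs lay past its reported interval of −1.07 to −0.24, further from 0. With Mki67 alone as the marker (21 cycling cells), Dnmt1 had a log2 ratio of 0.94, below its reported interval of 1.24 to 1.99, and Ezh2 of 0.98. With Top2a alone (31 cycling and 84 non-cycling cells) Dnmt1 had 1.75 and Ezh2 1.44. Over the 191 cells the Spearman correlation with Mki67 was 0.13 for Dnmt1, 0.15 for Ezh2, −0.13 for Tet1 and −0.14 for Tet3. With Top2a it was 0.47 for Dnmt1, 0.38 for Ezh2, −0.16 for Tet1 and −0.01 for Tet3.

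The genes whose levels over the 191 cells were most like each member, by Spearman correlation among 1587 genes with at least 300 UMIs, differed between the members. For Dnmt1 they were the tubulins Tuba1b (rho 0.58) and Tubb5 (0.52) and the replicative helicase subunit Mcm6 (0.50). Among cells under 5 cycle UMIs the values were 0.42, 0.38 and 0.38. For Ezh2 they were Stmn1 (0.50), which encodes a regulator of microtubules, Uhrf1 (0.47), which encodes the factor that brings Dnmt1 to replicating DNA, and the chaperone gene Hsp90aa1 (0.44), with 0.35, 0.32 and 0.29 under the limit. Tet1 was most like Gabarapl1, a gene of autophagy (0.31). No gene reached 0.3 with Dnmt3a, Dnmt3b or Tet3, and the other 4 members had under 300 UMIs. All values share the cells' libraries and depth and are descriptions.

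Of 60 other genes of the same pathways in the counts, 43 had at least 50 UMIs over cycling and non-cycling cells. Their counts stand beside 12.3% of all genes upwards and 11.4% downwards. Of 10 measured partners of DNA methylation 3 met the rule upwards and none downwards. Uhrf1 had 274 UMIs in cycling cells, against 42 UMIs in non-cycling cells, a log2 ratio of 2.55. Hells, a chromatin remodeller needed for methylation, had 154.1 CPM in cycling cells, against 34.8 CPM in non-cycling cells (2.15), and Mbd4, a mismatch glycosylase of methylated sites, 57 UMIs in cycling cells, against 20 UMIs in non-cycling cells (1.35). Of 7 measured subunits of Polycomb repressive complex 2 besides Ezh1 and Ezh2, 3 met the rule upwards, Suz12 at 0.86, Rbbp4 at 0.69 and Rbbp7 at 0.61, and none downwards.

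The other lists had members below 0. Of 6 measured partners of demethylation 2 met the rule downwards, Ogt, an O-GlcNAc transferase that binds Tet proteins, at −1.01 and D2hgdh, which removes D-2-hydroxyglutarate, at −0.94. Of 12 measured genes of Polycomb repressive complex 1 besides Bmi1 Cbx6, a chromodomain subunit, met it downwards, at −1.04, and none met it upwards, so that this list lay near or below the background. Of 8 measured genes of the Bap1 deubiquitinase complex and the H3K27 demethylases 2 met it downwards, the demethylase gene Kdm6b at −1.22 and Mbd5 at −1.20.

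The next question was which of the 10 genes differed with surface signals or size among cells under 5 cycle UMIs. With the 4 surface signals 5 of 40 pairs of gene and signal met the rule in either direction, in 4 genes, against 9.77% of the 22383 pairs of all genes, a share near the background. With forward scatter 4 of 10 did, against 11% of 5298 genes. With the surface share near the background, the label surface-linked says only that a value met the rule. Asxl1 and Bmi1 were surface-linked and did not meet the rule between cycling and non-cycling cells, while Dnmt1 and Ezh2 met both. Ezh1 and the 3 Tet genes were cycle-linked and not surface-linked, and of these Ezh1 met the rule with forward scatter. Dnmt3a and Dnmt3b met none of them.

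**Figure D4:**
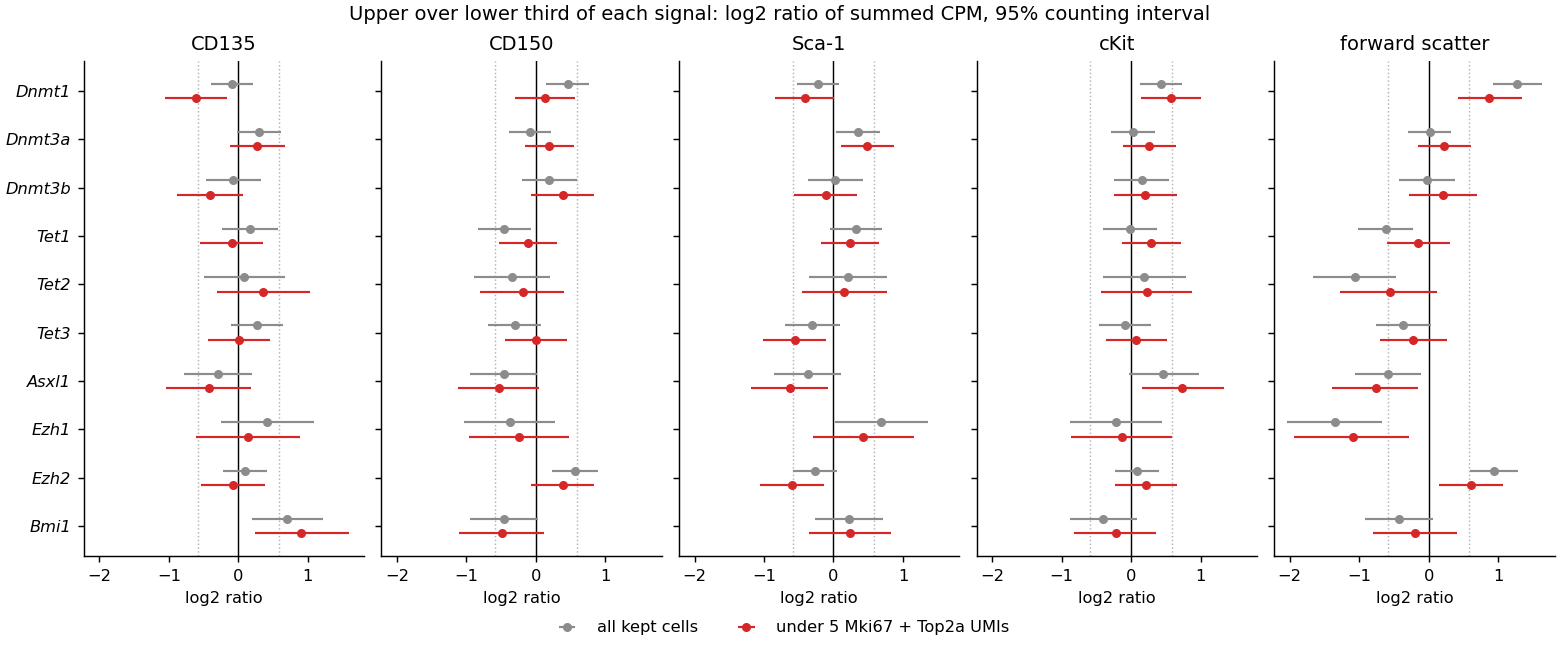
Log2 ratio of upper over lower class (32 cells per pool each) of CD135, CD150, Sca-1, cKit and forward scatter for each of the 10 genes, in all kept cells in grey and in cells under 5 Mki67 and Top2a UMIs in red, with exact 95% intervals. In cells under the limit the values with intervals clear of 0 included Bmi1 with CD135 (0.90), Asxl1 with cKit (0.73) and Dnmt1 with forward scatter (0.87).

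CD135 is the Flt3 receptor, whose signal marks lymphoid-primed progenitors. Among cells under the limit, 1 of the 10 genes met the rule upwards, Bmi1, and 1 downwards, Dnmt1, against 5.52% and 7.57% of 5380 genes. Bmi1 had 39.2, 72.5 and 73.3 CPM in the lower, middle and upper class (43, 55 and 51 cells). The median cell of the lower class had no UMI of Bmi1 and none had more than 3, while the median in the middle and upper classes was 1 UMI. It had 63 UMIs in the upper class, against 29 UMIs in the lower class, a log2 ratio of 0.90 (0.25 to 1.59), with 1.14 in pool 1 and 0.68 in pool 2. Bmi1 had a UMI in 64.7% of the upper class, against 46.5% of the lower class.

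Dnmt1 had 135, 118 and 88.5 CPM in the lower, middle and upper CD135 class under the limit. It had 76 UMIs in the upper class, against 100 UMIs in the lower class, a log2 ratio of −0.61 (−1.06 to −0.17), with −1.02 in pool 1 and −0.29 in pool 2. Cells without Dnmt1 were found in each class, and the highest count was 5 UMIs in the upper class, against 9 UMIs in the lower class. In all kept cells Dnmt1 had −0.09 (−0.39 to 0.21), and Bmi1 alone met the rule there, with 69.9 CPM in the upper class, against 43.1 CPM in the lower class (0.70), where 6.28% of 7232 genes met it upwards and 8.01% downwards.

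Other signals moved with CD135. Of the 51 cells of its upper class under the limit, 36 lay in the lower cKit class and 1 in the upper one. All 6 measured genes of a lymphoid priming list were higher. Its 8 genes in the counts summed to 2924 CPM in the upper class, against 557 CPM in the lower class. All 4 measured erythroid and megakaryocytic genes were lower. The 10 genes of that list summed to 637 CPM in the upper class, against 1318 CPM in the lower class. The S-phase list summed to 1188 CPM in the upper class, against 1345 CPM in the lower class. With only cells also at or below the median S-phase level, 31 in the upper and 23 in the lower class, the log2 ratio was 1.10 for Bmi1 and −0.74 for Dnmt1. The part of the other markers in these ratios was not tested.

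CD150, the receptor encoded by Slamf1, marks stem cells within LSK. Under the limit none of the 10 genes met the rule with it, where 3.26% of 5703 genes did upwards and 3.68% downwards. The 10 log2 ratios lay between −0.53 (Asxl1) and 0.39 (Dnmt3b), each with an interval that included 0. In all kept cells none met the rule either, where 5.69% of 7275 genes did upwards and 4.43% downwards. There the intervals of 3 genes excluded 0. Ezh2 had 105, 138 and 154 CPM in the lower, middle and upper class (0.56), Dnmt1 127, 143 and 174.8 CPM (0.46), and Tet1 114, 89.3 and 83.1 CPM (−0.45). The upper class held 19 cycling cells, against 9 in the lower class, and under the limit these 3 values were 0.38, 0.13 and −0.11.

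Sca-1, a surface protein encoded by Ly6a, is among the antigens that define the gate. Under the limit 2 genes met the rule downwards, Ezh2 and Asxl1, and none upwards, against 3.89% and 5.01% of 5687 genes. Ezh2 had 121, 103 and 80.2 CPM in the lower, middle and upper class (45, 48 and 56 cells). The median level of single cells was 72.7 CPM in the upper class, against 123 CPM in the lower class, with cells at 0 in both. It had 74 UMIs in the upper class, against 95 UMIs in the lower class, a log2 ratio of −0.59 (−1.05 to −0.14), with −0.58 in pool 1 and −0.61 in pool 2. It lay just past the 1.5-fold limit.

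Asxl1 had 85.4, 62.9 and 55.3 CPM in the lower, middle and upper Sca-1 class under the limit. The upper class had 51 UMIs, against 67 UMIs in the lower class, a log2 ratio of −0.63 (−1.18 to −0.08), with −0.19 in pool 1 and −0.95 in pool 2. The size thus came mainly from pool 2. Just short of 1.5-fold lay Tet3, at −0.56 (−1.01 to −0.11), and Dnmt3a, at 0.49 (0.11 to 0.87) with 122, 156 and 171 CPM over the classes and 0.51 and 0.46 in the pools. Dnmt3a was the only de novo enzyme gene with an interval clear of 0 in any surface comparison under the limit.

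In all kept cells 1 gene met the rule with Sca-1, Ezh1, where 7.64% of 7164 genes did upwards and 4.51% downwards. Ezh1 had 26.01, 35.3 and 41.7 CPM in the lower, middle and upper class, a log2 ratio of 0.68 (0.02 to 1.36). The upper class held 8 cycling cells, against 18 in the lower class, and under the limit Ezh1 had 0.42 (−0.30 to 1.16). The 8 stem genes, 6 measured, summed to 2443 CPM in the upper class under the limit, against 1161 CPM in the lower class. The 8 granulocyte and monocyte genes, 6 measured, summed to 372 CPM in the upper class, against 1032 CPM in the lower class. The S-phase list was at 1101 CPM in the upper class, against 1429 CPM in the lower class. In cells also at or below the median S-phase level, 31 in the upper and 22 in the lower class, the log2 ratio was −1.30 for Ezh2 and −0.75 for Asxl1. The part of the lineage markers was not tested.

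cKit is the receptor for stem cell factor. Under the limit Asxl1 alone met the rule with it, upwards, against 6.36% of 5613 genes upwards and 3.99% downwards. Asxl1 had 48.2, 72.2 and 80.1 CPM in the lower, middle and upper class (51, 51 and 47 cells). It had 69 UMIs in the upper class, against 40 UMIs in the lower class, a log2 ratio of 0.73 (0.15 to 1.33), with 0.62 in pool 1 and 0.87 in pool 2. A UMI of Asxl1 was found in 76.6% of the upper class, against 50.98% of the lower class. The counts of single cells reached 8 in the upper class, against 4 in the lower class.

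Dnmt1 had 91.6, 110.7 and 135.9 CPM over the cKit classes under the limit, a log2 ratio of 0.57 (0.14 to 1.01) that split by pool, with 1.60 in pool 1 and −0.26 in pool 2. In all kept cells no gene met the rule with cKit, where 6.91% of 7267 genes did upwards and 4.68% downwards, and Asxl1 had 0.47 (−0.03 to 0.97). Lymphoid priming genes summed to 725 CPM in the upper class under the limit, against 2572 CPM in the lower class, and erythroid and megakaryocytic genes to 1266 CPM in the upper class, against 624 CPM in the lower class. The S-phase list was at 1526 CPM in the upper class, against 1182 CPM in the lower class. With only cells also at or below the median S-phase level, 17 in the upper and 30 in the lower class, the log2 ratio of Asxl1 was 0.98. The part of these lists was not tested.

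**Figure D5:**
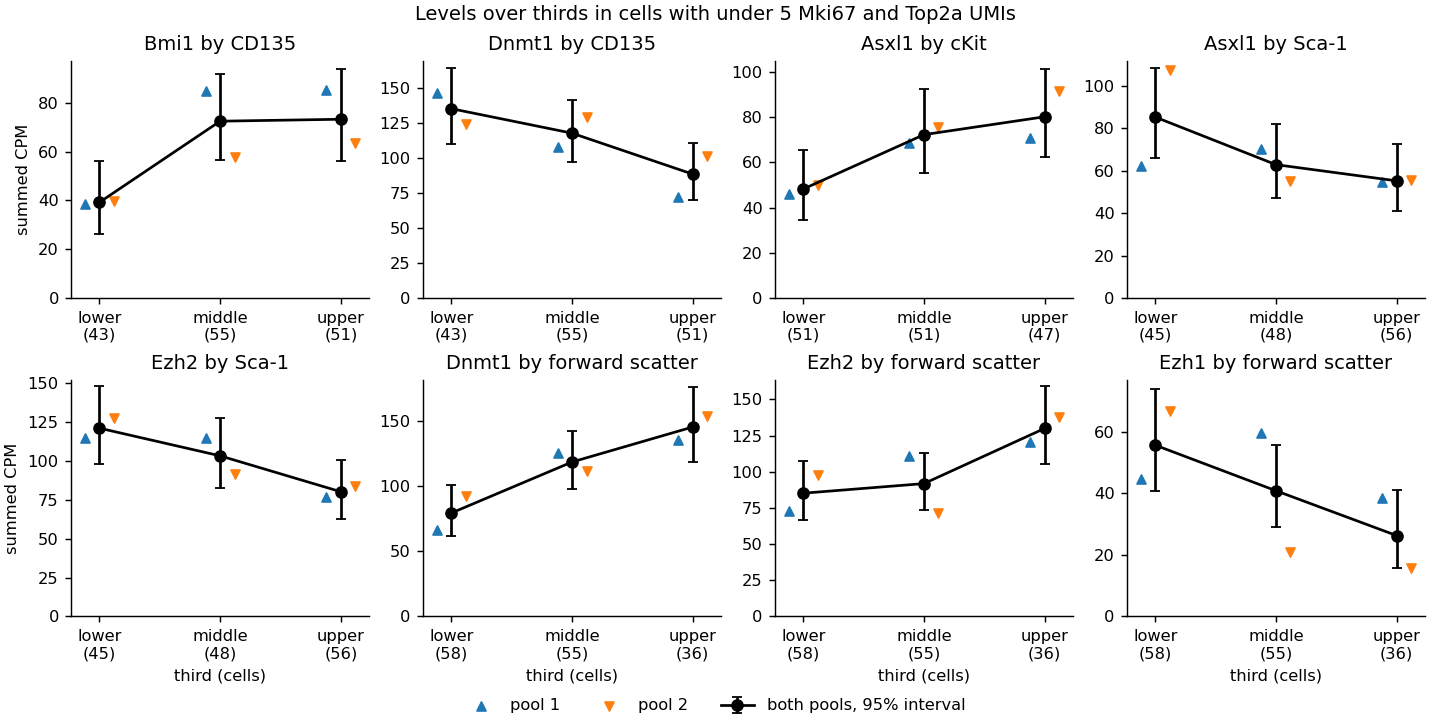
Summed level in CPM over the lower, middle and upper class among cells under 5 Mki67 and Top2a UMIs for 8 pairs of gene and signal, with exact Poisson intervals and each pool as a separate mark. Bmi1 had 39.2, 72.5 and 73.3 CPM over the CD135 classes, and Ezh1 55.6, 40.8 and 26.3 CPM over the forward scatter classes.

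Forward scatter had the largest member differences of the 5 measures, and it moved most with the cycle: 28 of the 42 cycling cells were in its upper class, 8 in the middle and 6 in the lower one. In all kept cells 2 genes met the rule upwards and 3 downwards, against 7.76% and 7.8% of 7323 genes. Dnmt1 had 89.0, 115 and 215 CPM over the lower, middle and upper class (1.27), and Ezh2 96.2, 99.2 and 184 CPM (0.93). By pool, Dnmt1 had 1.85 in pool 1 and 0.78 in pool 2, and Ezh2 1.30 and 0.60. Ezh1 (−1.34), Tet2 (−1.06) and Asxl1 (−0.59) were lower in the upper class. In pool 1 and pool 2 these were −0.84 and −1.91 for Ezh1, −1.53 and −0.63 for Tet2, and −0.22 and −0.94 for Asxl1. Tet1 had −0.62, but its sign differed between pool 1 (−1.25) and pool 2 (0.31).

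Under the limit 4 of these 5 genes still met the rule, 2 upwards and 2 downwards, against 5.25% and 5.76% of 5298 genes. Dnmt1 had 79.2, 118 and 145 CPM in the lower, middle and upper class (58, 55 and 36 cells), a log2 ratio of 0.87 (0.42 to 1.34), with 1.04 in pool 1 and 0.73 in pool 2. Ezh2 had 85.2, 91.8 and 130 CPM, a log2 ratio of 0.61 (0.15 to 1.07), with 0.73 in pool 1 and 0.50 in pool 2. Both were highest in the largest cells, with a median Dnmt1 level of 138 CPM per cell in the upper class, against 63.9 CPM in the lower class.

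Ezh1 had 55.6, 40.8 and 26.3 CPM over the same classes, with 19 UMIs in the upper class, against 47 UMIs in the lower class. Its log2 ratio was −1.08 (−1.93 to −0.29), with −0.22 in pool 1 and −2.09 in pool 2. Asxl1 had 81.6, 68.3 and 48.4 CPM, a log2 ratio of −0.75 (−1.38 to −0.15), with −0.21 in pool 1 and −1.28 in pool 2. For both genes most of the difference lay in pool 2. Tet2 had −0.56 (−1.27 to 0.13) and did not meet the rule under the limit. Ezh2 gave 83.2% of the UMIs of Ezh1 and Ezh2 in the upper class under the limit, against 60.5% in the lower class.

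Cells under the limit were not all outside S phase. Their S-phase list summed to 975, 1210 and 1964 CPM over the lower, middle and upper forward scatter class, and all 10 measured genes of it were higher in the upper class. Only 6 cells of the upper class, against 37 of the lower class, were also at or below the median S-phase level, and there Dnmt1 had 1.21, Ezh2 0.17, Asxl1 −1.38 and Ezh1 −0.43. The upper class of all kept cells also held 11 of the 14 cells with a CD127 signal above 2000, and under the limit its granulocyte and monocyte genes summed to 1031 CPM, against 335 CPM in the lower class. Their part was not tested. Per spike-in UMI the median of all genes moved by 0.75 in all kept cells and by 0.59 under the limit, and Asxl1 turned to 0.16 in all kept cells.

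Cycling and non-cycling cells were also each split by size, and the 87 cells between are not shown. In both classes, whose cells were already used above, Dnmt1 was highest in the upper forward scatter class. In cycling cells it had 152, 95.1 and 275 CPM over the lower, middle and upper forward scatter class (6, 8 and 28 cells), and in non-cycling cells 56.8, 73.5 and 121 CPM (28, 23 and 11 cells). Ezh2 had 167, 140 and 230 CPM in cycling cells and 76.6, 73.5 and 145 CPM in non-cycling cells. In cycling cells the lower and middle classes held 17 to 25 UMIs of either gene, and their intervals overlapped.

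Some members share their place in the genome with another counted gene, and the use of strand in counting is not given in the sources used here. On the other strand of Asxl1 lies 2500004C02Rik, with 57 UMIs beside 229 of Asxl1. Dnmt3bos had 7 UMIs, and Dnmt3aos and B230319C09Rik, which overlaps Tet3, had 1 each. The other 6 members overlapped no counted gene. Where fewer UMIs were summed over a class, fewer cells with the transcript and fewer transcripts per cell cannot be told apart at this depth.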

How the data were processed

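Single cells were index-sorted from cKit-enriched marrow and made into libraries with an adapted CEL-seq2 protocol, with UMIs of 6 bases, cell indexes of 8 bases from 96 primers and ERCC spike-in RNA, per the labels' protocols. The authors deposited raw UMI counts per gene and cell, without normalization. Which aligner and counter were run is not given in the sources used here. GRCh38, which is human, is the build named per the submitters' processing notes, but the identifiers are all of mouse genes, so which build was used is unknown. Symbols (20530 of 20764 genes) were matched by identifier, coordinates come from GENCODE M21 on GRCm38, and promoters from RefSeq on GRCm38.p6.

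Cells under 20% of their pool's median gene UMIs were left out, which removed 1. Doublets were not called, as cells were sorted singly. For each class, counts were added over its cells and scaled to its total gene UMIs without spike-ins. Ratios have exact conditional binomial 95% intervals, sums exact Poisson and shares Clopper-Pearson intervals, and reads of 1 well share a library. Animals are not named, so conditions could not be tested over samples. Intervals were checked on counts drawn from Poisson distributions with known ratios. That is the model the intervals assume, so the check could not show how they hold with the uneven spread over cells. All 10 members are named. Other pathway genes are named where they had at least 50 UMIs in the classes compared and met the rule, and like genes where rho was at least 0.3 in cells scaled to 10000 UMIs. The members and gene lists were chosen with earlier results of these data known. Alternatives were each pool alone, all 192 cells, outer classes of 24 or 48 cells per pool in place of 32, totals without 3 abundant genes or from spike-ins, means over cells, thinned cells, cells without CD127-high ones or without the cell richest in a gene, other cycle limits (3, 10 or 0 UMIs), each cycle marker alone and reversed ties. Chosen after seeing the data were cells with 5 to 29 or with 30 or more cycle UMIs, cells with 20000 to 40000 UMIs and cells at or below the median S-phase level. Python 3.11.15, numpy 2.4.6, scipy 1.17.1, pandas 2.3.3 and matplotlib 3.10.9 were used.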

Additional observations from a re-analysis of the deposited data

How the results depend on the processing

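The median log2 ratio of the 10 genes moved beyond the spread in 4 recomputed values. Per spike-in UMI it was 0.44 for cycling over non-cycling cells (reported as −0.25), 0.35 for forward scatter in all kept cells (reported as −0.40) and 0.43 for forward scatter under the cycle limit (reported as −0.17), and in pool 2 alone it was 0.053 for forward scatter in all kept cells. For the spike-in values the scaling itself adds 1 constant to all genes of a comparison; for pool 2 the cause was not tested. The sign of that median was opposite to the reported one in 34 recomputed values, none of which belonged to a reported median past 1.5-fold. Of the recomputed values of single genes 1399 lay inside the interval of the reported ratio, some of them on the other side of 0. A further 77 lay outside it, as did the 4 named below that turned in sign. Where the reported ratio was past 1.5-fold with an interval clear of 0, 4 of 329 recomputed values had the opposite sign, and elsewhere 148 of 1151 had. The 4 were Tet3 between cycling and non-cycling cells per spike-in UMI (0.040), Tet1 with forward scatter in pool 2 alone (0.31) and per spike-in UMI (0.13), and Asxl1 with forward scatter per spike-in UMI (0.16). Dnmt1, Ezh2, Ezh1, Tet1 and Tet2 kept their sign between cycling and non-cycling cells in 16 of 16 alternatives, with Dnmt1 between 0.94 and 2.30, Ezh2 between 0.68 and 1.92, Ezh1 between −2.01 and −0.82, Tet1 between −1.97 and −0.43 and Tet2 between −2.09 and −0.68. The 9 pairs that met the rule under the cycle limit kept their sign in all of their 15 or 16 alternatives; Bmi1 with CD135 lay between 0.38 and 1.16, Dnmt1 with CD135 between −1.02 and −0.28, Asxl1 with cKit between 0.60 and 1.53, Ezh2 with Sca-1 between −1.30 and −0.34 and Ezh1 with forward scatter between −2.09 and −0.22. For these genes and pairs the rule had already asked for the same sign in both pools. The alternatives of each pool alone could therefore not differ in sign, and the others reuse many of the same cells. No paired analysis was possible because the labels name no replicate and the cells are 1 sample. Under the cycle limit a gene of the set had 19 to 158 UMIs in an outer class, and the rule, which asks for 1.5-fold, calls no smaller difference.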

Other observations

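Among cells under 5 cycle UMIs, genes of the same pathways outside the set of 10 met the rule in 6 of 37 measured with Sca-1, where 8.9% of all genes did in either direction, in 4 of 34 with forward scatter (11%), in 3 of 37 with CD150 (6.94%), in 2 of 36 with CD135 (13.1%) and in 2 of 34 with cKit (10.4%). The difference between the signals was not tested. Cbx6, a chromodomain subunit of Polycomb repressive complex 1, had 156 UMIs or 169 CPM in the upper Sca-1 class, against 74 UMIs or 94.3 CPM in the lower class, a log2 ratio of 0.84 (0.43 to 1.26), with 0.75 in pool 1 and 0.94 in pool 2. Zbtb38 and Mbd2, which encode readers of methylated DNA, had 0.68 and 0.67, and the H3K27 demethylase gene Kdm6a 0.67. Uhrf1 was lower, with 33.6 CPM in the upper class, against 68.8 CPM in the lower class (−1.03), as was Scmh1 (−0.76). Uhrf1 was also higher with cKit, at 68.5 CPM in the upper class, against 38.5 CPM in the lower class (0.83), with 1.62 in pool 1 and 0.34 in pool 2.

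With forward scatter, Hells had 102 CPM in the upper class, against 24.8 CPM in the lower class (2.04), next to Uhrf1 (0.72) and Suz12 (0.59), while Jarid2, which encodes a partner of Polycomb repressive complex 2, had 51.1 CPM in the upper class, against 85.2 CPM in the lower class (−0.74). With CD135 the variant Polycomb repressive complex 1 gene Pcgf5 had 33.8 CPM in the upper class, against 63.6 CPM in the lower class (−0.91), next to D2hgdh with 24.4 CPM in the upper class, against 45.99 CPM in the lower class (−0.91). Pcgf5 had with cKit 67.4 CPM in the upper class, against 40.96 CPM in the lower class (0.72). Pcgf5 thus lay opposite to Bmi1, also known as Pcgf4, which was higher with CD135 (0.90). With CD150 the value was 0.67 for Hells, 0.78 for Kdm6a and −0.68 for Kdm2b. In all kept cells 7.76% of all genes tested met the rule upwards and 7.8% downwards with forward scatter, and 5.69% and 4.43% with CD150. The shares were 7.64% and 4.51% with Sca-1, 6.28% and 8.01% with CD135, and 6.91% and 4.68% with cKit. Among the 60 pathway genes outside the set, 17 ratios met the rule over the 5 measures, near or below the background with each. With forward scatter these were Hells (2.29), Uhrf1 (1.66), Suz12 (0.78), Phc3 (−0.64), Ogt (−0.69), Jarid2 (−0.77) and Kdm6b (−0.90). With CD150 they were Uhrf1 (0.85), Hells (0.63), Cxxc5 (−0.68) and Foxk1 (−0.75), with Sca-1 Cbx6 (1.00), Zbtb38 (0.71), Phc3 (0.68) and Suz12 (−0.59), with CD135 Rybp (0.78) and with cKit Cbx2 (−1.28). Each of these met the rule for a difference in counting error, and they were named out of all listed genes because they did.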
